A study of Rattus norvegicus with 20 samples.

Results

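The right and left ventricles of saline-treated rats were compared gene by gene. The comparison rests on 10 of the 20 libraries of the series, 5 from the right ventricle (RV) and 5 from the left ventricle (LV), chosen by their labels. RV and LV libraries with the same code in their description were taken as pairs. The rats were male, weighed 250 g when injected with saline, and carry no strain, genotype or age in the labels used here. The other 10 libraries, 5 per ventricle, came from male rats of the same weight given 60 mg/kg monocrotaline (MCT), a plant alkaloid with which pulmonary hypertension is modelled. They serve here as a second set of RV and LV libraries and to test whether the chamber difference changed. Killing at a discomfort score of at least 7 is stated for the study as a whole.

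The RV drives blood through the low-pressure circulation of the lungs, whereas the LV serves the high-pressure systemic circulation and has a thicker wall. In the embryo most of the LV forms from the first heart field and most of the RV from the second. A comparison after saline asks how far the transcripts of both chambers differ without the disease model. Each library read the 3' ends of messenger RNA from homogenised ventricle, so a difference can come from the makeup of cells as well as from the RNA per cell, and these cannot be told apart. The count table names genes by Ensembl ID alone and none of the reference tables used here pairs these IDs with symbols, so heart muscle, atrial, vessel and other markers could not be checked and genes are given by ID.

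Total counts ran from 3886639 to 6682021 in RV libraries and from 3511166 to 6414662 in LV libraries. Genes with any count numbered 13847 to 15085 per RV library and 13542 to 14611 per LV library. In each of the 5 pairs the RV library had more genes detected (exact two-sided permutation test of group means, n = 5 per group, p = 0.18, Benjamini-Hochberg value over 7 library measures 0.43). The TMM scaling factor was 1.07 ± 0.111 (SD, n = 5) in the RV and 0.94 ± 0.0441 in the LV, and was higher in the RV in all 5 pairs (exact permutation p = 0.040, Benjamini-Hochberg value 0.14).

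The chamber was not the largest source of variation among the 10 saline libraries. The first principal component of log2 CPM (counts scaled to a common library total) held 38.5% of the variance and did not separate the chambers, with RV scores from -34.8 to 22.5 and LV scores from -24.9 to 47.1 (exact two-sided permutation test, n = 5 per group, p = 0.63). The second held 17.0% and separated them completely, with RV scores from 9.72 to 20.2 and LV scores from -21.1 to -6.96 (exact permutation p = 0.0079, the smallest that 5 against 5 allows, and 0.056 after Benjamini-Hochberg adjustment over the 7 measures). RV was above LV on it in all 5 pairs. For a single gene, the chamber, with 1 degree of freedom, accounted for a median of 8.60% of the sum of squares, and the pair, with 4, for 50.3%. Their shares of the degrees of freedom were 11.1% and 44.4%. Without any effect these would be the mean shares, not the medians, so the medians cannot be judged against them. In 684 of the 9938 genes tested the chamber accounted for more than 50% of the sum of squares. The count to be seen without a chamber difference was not worked out.

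**Figure D1:**
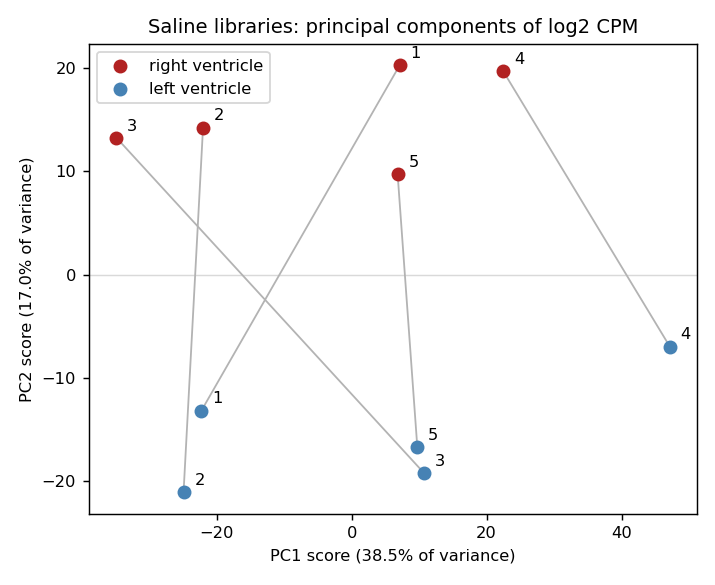
Scores of the 10 saline libraries on the first 2 principal components of log2 CPM; points are libraries, numbers are replicates and grey lines join the RV and LV library of a pair. All 5 RV libraries lie above 0 on the second component and all 5 LV libraries below it, while the lines of pairs 1 and 3 run in opposite directions along the first.

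The pairs were not equally alike. Deviations from the chamber means correlated across 9938 genes, which are not independent replicates, at 0.44, 0.62 and 0.28 in pairs 2, 4 and 5, but at -0.20 and -0.15 in pairs 1 and 3. RV replicate 1 was closest to LV replicate 3 (0.23) and RV replicate 3 to LV replicate 1 (0.57). Seen from the LV side the matches differed in part. LV replicate 1 was closest to RV replicate 3, but LV replicate 3 was closest to RV replicate 5 (0.24). LV replicate 2 was closest to RV replicate 3 (0.46), ahead of RV replicate 2. LV replicates 4 and 5 were closest to the RV library of their own pair. A second measure did not settle the pairing of replicates 1 and 3. In 4 genes the libraries fell into a high and a low side, at least 4-fold apart, that did not follow the chamber. These were chosen without regard to pairs, and in 3 of them both libraries of all 5 pairs were on the same side. The first of these was at 3.72 to 5.40 CPM in both chambers of replicates 1, 3 and 5 and at 0 to 0.349 CPM in those of replicates 2 and 4. The second was at 39.6 to 85.1 CPM in 8 libraries and at 6.37 and 7.60 CPM in the RV and LV of replicate 2. The third was at 3.80 to 8.02 CPM in replicates 2, 3 and 5 and at 0.175 to 0.741 CPM in replicates 1 and 4. The remaining gene was on different sides in pairs 1 and 3, at 0.988 CPM in the RV and 17.2 CPM in the LV of replicate 1, and at 19.5 CPM and 0.698 CPM in those of replicate 3. The first and second genes had replicates 1 and 3 on the same side in both chambers. They therefore cannot tell the labelled pairs 1 and 3 from crossed ones. The third gene went with the labelled pairs, and the remaining gene went with a crossing of replicates 1 and 3. The labels do not state that a pair comes from 1 animal.

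Of 9938 genes tested, 80 differed between the ventricles, which is 0.805% (edgeR quasi-likelihood test, adjusted p under 0.05). Of these, 37 were higher in the RV, or 0.372%, and 43 were lower, or 0.433%. Under upper quartile scaling the split was 46 higher and 35 lower. The median log2 fold change was 1.14 among genes higher in the RV and -1.05 among those lower. More than 2-fold differences were seen in 23 of the higher and 24 of the lower genes, more than 4-fold in 4 and 11, and more than 8-fold in 1 and 3. Over all genes tested, 138 had a fitted difference over 2-fold and 24 over 4-fold, so most genes with a 2-fold difference did not pass the test.

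Genes lower in the RV were the more strongly expressed, with a median level of 5.76 log2 CPM against 3.81 for genes higher in the RV and 3.87 over all genes tested. A mean level over 100 CPM was found in 18 of the 43 lower genes and in 3 of the 37 higher genes. Over all 9938 genes tested it was found in 962, a share close to that of the higher genes. Summed over the lower genes, the share of all counts was 1.26% ± 0.146 (SD, n = 5) per LV library and 0.729% ± 0.075 per RV library. Summed over the higher genes, it was 0.17% ± 0.0266 per RV library and 0.0701% ± 0.00676 per LV library. Both sets were chosen for these differences, so the shares describe their size only. Complete absence from 1 chamber was rare and weak. Only 2 genes had 0 counts in all 5 RV libraries and at least 1 in every LV library, 3 genes had the reverse, and none of these reached more than 9 counts summed over the 5 libraries of the other chamber.

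**Figure D2:**
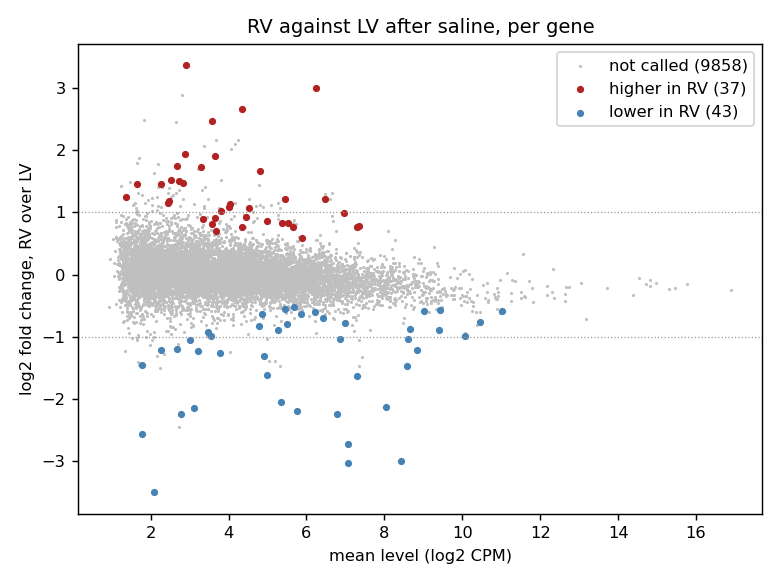
Log2 fold change of RV over LV after saline against mean level for the 9938 genes tested; coloured points passed an adjusted p of 0.05 and dotted lines mark 2-fold differences. The 43 lower genes reach to higher mean levels than the 37 higher genes.

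In 77 of the 80 genes no RV library overlapped an LV library, and in all 80 the RV and LV libraries differed in the same direction in every pair. Over all genes tested the groups did not overlap in 3.22% (1.47% higher and 1.75% lower in the RV), and 15.7% had the same direction in all 5 pairs. The 80 genes were chosen on these libraries, so a check on pairs not used for the choice was added. When a pair was left out and genes were called from the other 4, between 20 and 50 genes were called. In the pair left out, 24 of 26 of these genes had the same direction for pair 1, 19 of 19 for pair 2, 19 of 19 for pair 3, 47 of 48 for pair 4 and 30 of 30 for pair 5, counting genes measured in both. Many genes recur among these lists. Over all genes, the share with the same direction was between 50.5% (pair 1) and 64.3% (pair 5). The median difference of the called genes in the pair left out was 1.08, 1.96, 2.02, 1.12 and 1.28 on the log2 scale for pairs 1 to 5.

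How many genes passed depended on the fit and on single libraries. With the pair as a replicate block 165 genes passed, or 1.66%, 80 higher and 85 lower, and these included 78 of the 80. The 87 added genes had a smaller median difference, 0.82 against 1.14 on the absolute log2 scale. When all 20 libraries shared 1 estimate of the spread only 8 genes passed, 6 higher and 2 lower, all among the 80. The count was 48, 24 and 24 without LV replicate 2, 3 or 5, and 23, 38, 37, 52 and 42 without RV replicates 1 to 5, while LV replicates 1 and 4 left it at 56 and 58. Of the 80 genes, 20 passed with each library left out in turn, and 15 of them were lower in the RV. All 20 also passed with the block. Without pairs 1 and 3 the count was 7, and 193 with the block. The description codes look like dates, although no label says so, and by them replicates 1 to 3 and replicates 4 and 5 form 2 sets. Within replicates 1 to 3 of each chamber 35 genes passed, 26 of them among the 80, and within replicates 4 and 5 there were 8, of which 6 were among the 80.

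The gene with the largest fall from LV to RV was ENSRNOG00000012742. It was at 5.29, 8.57, 7.93, 6.48 and 9.16 CPM in LV replicates 1 to 5 and at 0.248, 0.512, 0.514, 0.876 and 0.999 CPM in RV replicates 1 to 5. The lowest LV library was above the highest RV library by several fold, although the RV libraries held only 2 to 7 counts each. The log2 fold change was -3.50 (SE 0.32, edgeR adjusted p = 0.00019). Another gene separated the chambers as cleanly at a far higher level, with 496 to 744 CPM in the LV and 52.4 to 105 CPM in the RV.

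ENSRNOG00000008943 followed, at 345, 129, 316, 151 and 255 CPM in LV replicates 1 to 5 and 52.2, 16.4, 23.6, 19.8 and 32.4 CPM in RV replicates 1 to 5. It varied among libraries of 1 chamber as well, with RV and LV replicate 1 the highest and RV and LV replicate 2 the lowest of their groups. The log2 fold change was -3.03 (SE 0.37, edgeR adjusted p = 0.0027, and 5.86e-06 with the replicate block). It passed without any single library. The adjusted p was 0.052 within replicates 1 to 3, and with all 20 libraries it was 0.099 for this gene and 0.085 for ENSRNOG00000012742.

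The gene with the largest rise was ENSRNOG00000010278. It was at 8.56, 26.6, 23.1, 3.50 and 5.71 CPM in RV replicates 1 to 5 and at 1.02, 0.317, 1.63, 0.35 and 2.91 CPM in LV replicates 1 to 5. The groups did not overlap, but RV replicates 2 and 3 were well above the other RV libraries. The log2 fold change was 3.36 (SE 0.69, edgeR adjusted p = 0.048). ENSRNOG00000002802 was at 93.0, 181, 157, 167 and 68.2 CPM in the RV and at 7.50, 0.317, 12.6, 35.9 and 24.8 CPM in the LV, for replicates 1 to 5. LV replicate 2, with 1 count, was far below the other LV libraries. Its log2 fold change was 2.998 (SE 0.61, edgeR adjusted p = 0.046). Both rises stood close to the threshold. The call of ENSRNOG00000010278 was lost when any single library other than RV replicate 4 was left out, and that of ENSRNOG00000002802 when any other than LV replicates 2 and 4 was. With the replicate block the first passed (edgeR adjusted p = 0.021) and the second did not (0.084). Within replicates 1 to 3 their log2 fold changes were 4.15 and 4.32 (edgeR adjusted p = 0.018 and 0.031), and within replicates 4 and 5 they were 1.61 and 1.96 (0.81 and 0.54).

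**Figure D3:**
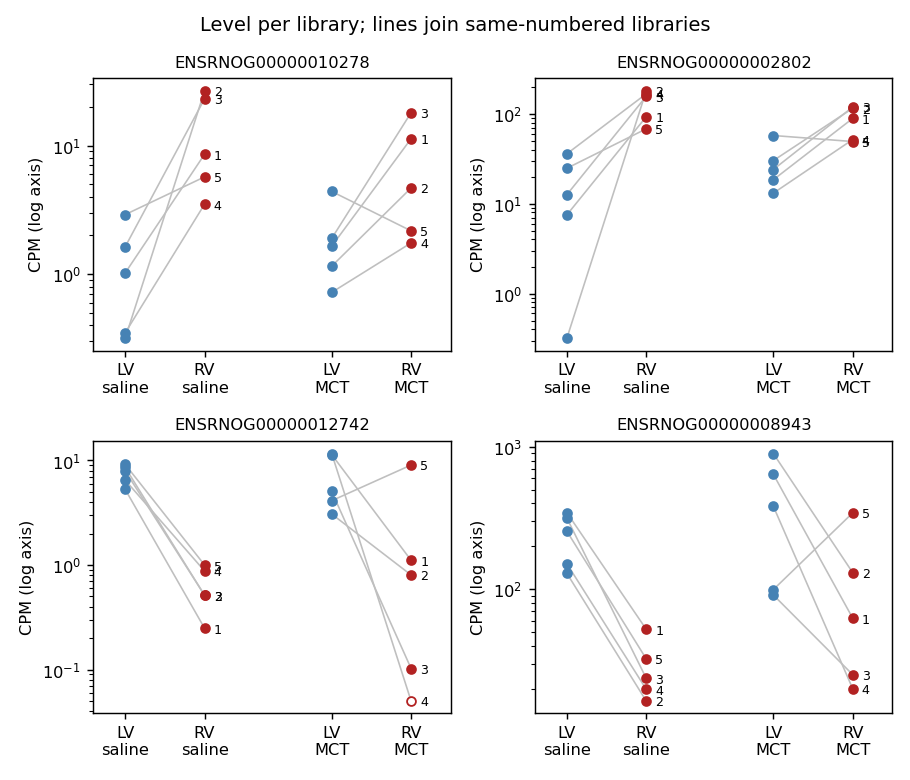
Level in CPM on a log axis for 4 genes in each of the 20 libraries; blue points are LV, red points RV, numbers are replicates and grey lines join same-numbered libraries, with an open point for a level of 0. The saline libraries do not overlap between chambers in any of the 4 genes, while in MCT pair 5 the line runs against the others.

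The MCT libraries gave a second reading of the same genes in other samples. RV against LV after MCT gave 0 of 10562 genes at an adjusted p under 0.05 (edgeR, smallest adjusted p = 0.9999), and 115 at an unadjusted p under 0.05, or 1.09%. The latter count was 89, 95, 196, 67 and 206 without LV MCT replicates 1 to 5 in turn. It was 115, 171, 70, 195 and 229 without RV MCT replicates 1 to 5 in turn. With all 10 MCT libraries it was 126 with DESeq2 and 527 with limma voom with quality weights. The 1.09% lies below the share of 0.05 expected if no gene differed and p-values were evenly spread. The 0 calls therefore do not show that the chambers were alike after MCT. Of the 80 genes, 78 were tested there, and 65 had the same direction as after saline, 29 of 36 higher and 36 of 42 lower genes. Over all genes tested in both, 56.8% had the same direction. The difference was smaller, with a median of 0.302 on the log2 scale in the saline direction, against 1.11 after saline, where these genes had been chosen. The median SE over all genes tested was 0.247 after MCT against 0.203 after saline. For these genes it was 0.34 against 0.206, but a small saline SE had helped to choose them. An unadjusted p under 0.05 was reached by 12 of the 78, all in the saline direction. Over the 9831 genes tested in both, 104 reached it, and 83 of these were in the saline direction.

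**Figure D4:**
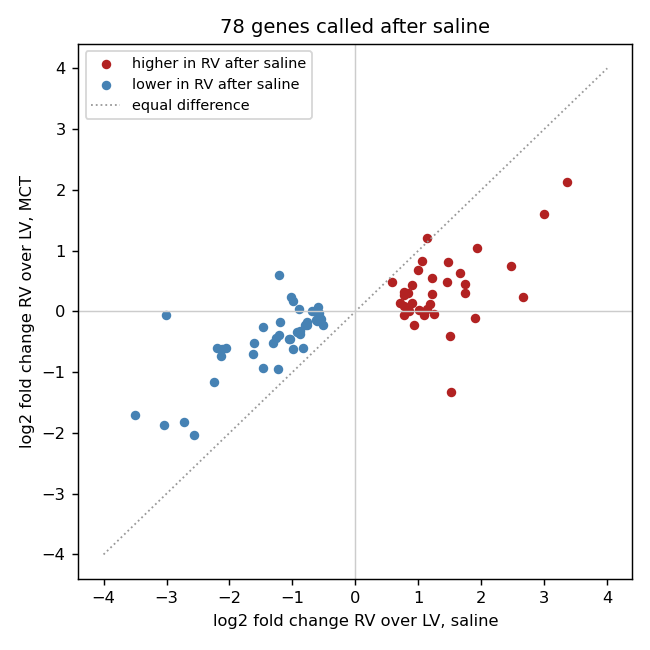
Log2 fold change of RV over LV after MCT against that after saline for the 78 called genes tested in both; the dotted line marks equal differences. 65 of the points share their sign on both axes, and most lie nearer to 0 on the MCT axis.

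The MCT pairs differed from each other. The saline direction was found in 51, 49, 72 and 55 of the 80 genes in MCT pairs 1 to 4 and in 26 in MCT pair 5. Over all 9938 genes it was found in 55.7%, 50.7%, 58.4% and 54.7% in MCT pairs 1 to 4. In MCT pair 5 that share was 44.2%, so the lower share there was not limited to the 80 genes. Among the 80 genes, the median log2 difference in the saline direction was 0.241, 0.206, 0.937 and 0.422 in MCT pairs 1 to 4. It was -0.242 in MCT pair 5 and 0.976 to 1.26 in the saline pairs. In MCT pair 5, ENSRNOG00000008943 was at 343 CPM in the RV and 99.2 CPM in the LV, and ENSRNOG00000012742 at 9.05 and 4.12 CPM, the reverse of the order in the other MCT pairs and in all saline pairs. Likewise, ENSRNOG00000010278 was at 2.17 CPM in the RV and 4.40 CPM in the LV, and ENSRNOG00000002802 at 49.2 and 57.4 CPM. Libraries of MCT pair 5 thus went against their chamber labels for these 4 genes. Without this pair, 65 of 80 genes had the saline direction, where 59.9% of all genes did, the median difference was 0.459, and still 0 genes passed (edgeR), with 392 at an unadjusted p under 0.05. With the replicate block and without this pair 2 genes passed, both among the 80.

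The mean log2 CPM of the 37 genes higher in the RV minus that of the 43 lower genes gave 1 value per library. After saline the RV libraries spanned -0.932 to -0.37 and the LV libraries -3.46 to -2.89. After MCT the RV libraries spanned -1.83 to -0.775 and the LV libraries -2.95 to -1.41, so that the chambers overlapped and most libraries lay between both saline ranges. LV MCT replicate 3 was at -2.95, within the range of LV saline libraries, and RV MCT replicates 3 and 4 were at -0.788 and -0.775, within that of RV saline libraries. The genes were chosen on the saline libraries, so only the MCT values are free of that choice.

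**Figure D5:**
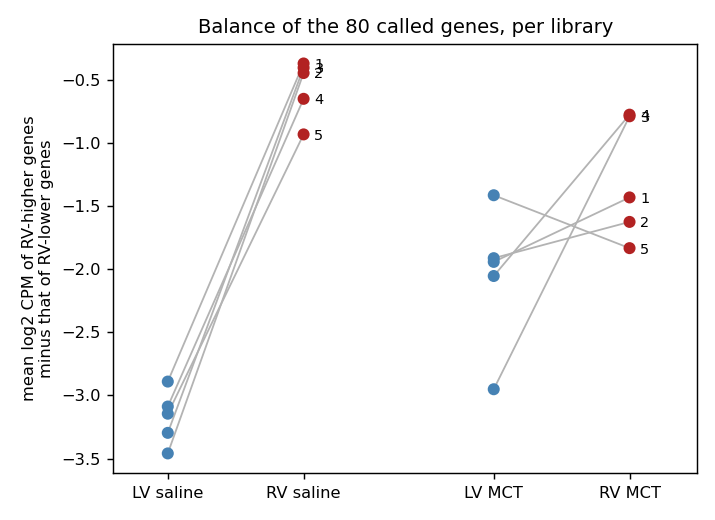
Mean log2 CPM of genes higher in the RV after saline minus that of genes lower in the RV, per library; numbers are replicates and grey lines join same-numbered libraries. All saline lines rise from LV to RV by more than 2 units, as the choice of genes on these libraries makes them do; MCT lines 1 to 4 rise by less than each saline line and that of MCT pair 5 falls.

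Whether the chamber difference itself changed with MCT was tested over all 20 libraries. No gene of 10929 passed (edgeR, smallest adjusted p = 0.85), and 305 had an unadjusted p under 0.05. This too is a smaller share than the 0.05 expected if no gene differed. DESeq2 and limma voom each called 1 gene. Among the 80 genes 35 had an unadjusted p under 0.05, but the saline values that chose them enter this test. For none of the 80 genes was the smaller or larger difference after MCT shown to be a change at an adjusted p under 0.05 (edgeR).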

How the data were processed

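The authors' deposited file holds raw read counts per Ensembl gene, 1 column per library, for 30452 gene IDs. All 20 columns were matched to samples by their description. QuantSeq libraries were sequenced in 2 runs, per the labels' protocols. Per the submitters' processing notes, the tools were STAR 2.7.10a and HTSeq 0.11.3. Those notes name 2 builds, mRatBN7.2 and rn6, and give neither a role. How runs were joined, which annotation was counted and whether strand was used are points not given in the sources used here, so overlapping genes and near-identical copies may share counts.

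For the 10 saline libraries, edgeR 4.0.16 was run in R 4.3.3 (TMM, filterByExpr, robust quasi-likelihood fit of both group means, Benjamini-Hochberg over all 9938 genes tested, which held 99.7% of counts). The SE comes from the F statistic. Log2 CPM used a prior count of 2. MCT libraries were fitted alone in the same way, and the difference of differences over all 20. Depth of 3511166 to 6682021 counts limits precision for weak genes. On simulated counts for 9938 genes with 200 changed, the saline comparison recovered 56% of 2-fold and 98% of 4-fold changes with 7 false calls. With the replicate block, on a separate draw, it recovered 59% and 94% with 12. The simulated libraries were drawn independently, without pair effects or correlation between genes. They therefore do not show how the block performs on these data, and the false calls here may be more or fewer.

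Pairs come from the codes shared by RV and LV descriptions, which look like dates. Only 3 of 5 pairs deviated together (correlations from -0.20 to 0.62), so the main fit has no block and the paired fit stands beside it. Since no label says that each library is a separate rat, p-values reflect only how far these libraries spread. Same-group libraries never agreed within sampling noise (chi-square per degree of freedom 4.87 to 101).

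The comparison, lists and fits were chosen with earlier results of these data known. The fit of saline libraries alone was preferred since MCT libraries had been seen to vary more. The 2 highest and 2 lowest fold changes among called genes with a mean log2 CPM of at least 2 are named. Gene lists by symbol were not used here. Alternatives were RLE or upper quartile scaling, other filters on low counts (none, or 1 CPM in 5 libraries), all 20 libraries, the replicate block, DESeq2 1.42.0, limma 3.58.1 voom with quality weights, a term for the 2 sets of codes (replicates 1 to 3, and 4 and 5) or 1 set alone, and libraries or pairs left out. Leaving out pairs 1 and 3, MCT pair 5 or single MCT libraries was chosen after seeing the data.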

Additional observations from a re-analysis of the deposited data

Results flagged for a closer look

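Each group of 5 values was searched for a library far from the rest, judged by its distance to the nearest value relative to the whole range. This held in 2 of 34 groups, a rate of about 1 in 20 being due to chance. RV saline replicate 1 held 0.215% of its counts in the 37 genes higher in the RV, with 0.147% to 0.166% in the remaining 4. ENSRNOG00000012742 was at 9.05 CPM in RV MCT replicate 5, against 0 to 1.11 CPM in the other RV MCT libraries.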

How the results depend on the processing

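The count of 80 genes (37 higher, 43 lower in the RV) was 8 (6 and 2) with all 20 libraries, 231 (97 and 134) with DESeq2, 135 (57 and 78) with limma voom, 162 (81 and 81) with a term for the 2 sets of codes (replicates 1 to 3, and 4 and 5), 35 (23 and 12) within replicates 1 to 3 and 8 (0 and 8) within replicates 4 and 5. With the replicate block it was 165 (80 and 85) in the saline libraries and 9 (6 and 3) over all 20, of which 4 were among the 80. Without pairs 1 and 3 it was 7 (1 and 6), and with the replicate block 193 (74 and 119). Leaving out 1 library gave 23 to 58 genes (6 to 30 higher, 16 to 38 lower), and leaving out 1 pair gave 20 to 50 (5 to 27 and 14 to 23). The other scalings and filters gave 81 to 84. Fits with libraries left out have fewer samples, and for the others the cause was not tested.

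The calls of ENSRNOG00000010278 and ENSRNOG00000002802 were lost in 22 and 21 of 29 alternatives (highest adjusted p 0.81 and 0.71), and those of ENSRNOG00000012742 and ENSRNOG00000008943 in 3 each (highest adjusted p 0.11 and 0.099). None of these 4 genes changed direction. After MCT, 0 genes passed in every alternative fitted without the block, leaving out any 1 library included. The number of the 80 genes with the saline direction was 51 to 66 in those, and lowest without LV MCT replicate 3. The count for the difference between saline and MCT was 1 with DESeq2, 1 with limma voom and 0 in the others run, the replicate block included. Depth limits genes near 1 CPM, which have few counts per library.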
